A study of Mus musculus with 2 samples.

Results

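Ribosomal protein pseudogenes are copies of ribosomal protein genes, most of them made when a spliced mRNA was reverse-transcribed and inserted elsewhere in the genome. The genes described here are all those whose symbol, matched through the Ensembl identifier with its version dropped, begins with Rpl or Rps and holds -ps. The rule found 257 genes among the 43346 mouse genes listed in both gene tables, and every one of them is accounted for below. Of these, 155 carry a large subunit name (Rpl) and 102 a small subunit name (Rps). The annotation calls 245 of them processed pseudogenes, 6 transcribed processed pseudogenes and 6 protein-coding genes. The reference annotation holds 43 further symbols of this form that are not analysed here.

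The cells were G1E-ER4, an immortalized male mouse erythroid line in which GATA1, the master transcription factor of red cell development, was restored as a form that responds to estradiol. Both libraries came from cells given 10 nM 17beta-estradiol for 3 h, and the labels number them as biological replicates 1 and 2 of 1 group. No untreated library was analysed here, so no value below measures an effect of estradiol. Poly(A) RNA was sequenced in paired ends to a depth of 31126956 expected counts in replicate 1 and 57853617 in replicate 2. Of 10 erythroid marker genes, 10 reached 1 TPM in both libraries, and of 8 markers of other blood and stromal lineages, 0 did, with Cd3e, Lyz2 and Cd8a at 0. The libraries stood apart from each other: the summed TPM of the erythroid markers was 4865 in replicate 1 against 19121 in replicate 2, and the 79 cytoplasmic ribosomal protein genes had a median of 249 TPM and 889 TPM. In RNA from a whole culture, fewer cells of a type and less RNA per cell cannot be told apart.

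The cytoplasmic ribosome is built from a small subunit, which reads the mRNA, and a large subunit, which joins the amino acids, and each of its proteins is usually made from 1 functional gene. Because those genes are short and strongly transcribed, mammalian genomes have gathered many processed copies of them, without introns and, as a rule, without a promoter of their own. A copy that is nearly identical to its functional gene, called the parent here, yields reads that match both, and a quantifier must divide those reads between them. Ribosomal protein dosage matters in the red cell lineage: loss of a single copy of RPS19, RPS10 or RPS26 causes Diamond-Blackfan anemia in people.

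The sequences show how little separates the copies printed here from their parents. Each pair below gives 120 bases of a pseudogene and the aligned coding bases of its parent, with capitals for the bases that differ. Both are read 5′ to 3′ from the GENCODE M21 transcripts on GRCm38. Each window is the gapless stretch of that length inside the parent's coding sequence with the most differing bases. Rps10-ps2 had the highest level of all 257 genes. Its window lies at chr16:20822168-20822287 on the minus strand, between annotated genes, and aligned to coding bases 354 to 473 of Rps10 with 5 differences.
Rps10-ps2: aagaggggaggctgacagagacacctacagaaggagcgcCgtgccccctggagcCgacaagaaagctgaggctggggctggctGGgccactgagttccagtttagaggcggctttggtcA
Rps10: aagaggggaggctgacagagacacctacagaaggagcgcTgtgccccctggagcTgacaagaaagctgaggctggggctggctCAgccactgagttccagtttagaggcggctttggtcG
Rps25-ps1 stood above its parent in both libraries. Its window lies at chr6:145266400-145266519 on the plus strand, between genes, and holds the first 120 coding bases with 2 differences.
Rps25-ps1: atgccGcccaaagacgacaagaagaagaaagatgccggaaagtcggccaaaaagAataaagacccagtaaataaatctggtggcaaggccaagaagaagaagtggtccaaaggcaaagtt
Rps25: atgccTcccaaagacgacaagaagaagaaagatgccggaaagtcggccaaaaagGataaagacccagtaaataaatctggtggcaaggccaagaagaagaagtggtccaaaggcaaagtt
Rpl3-ps1 stood above its parent in replicate 2. Its window lies at chrX:13202572-13202691 on the plus strand, between genes, and holds the first 120 coding bases with 1 difference.
Rpl3-ps1: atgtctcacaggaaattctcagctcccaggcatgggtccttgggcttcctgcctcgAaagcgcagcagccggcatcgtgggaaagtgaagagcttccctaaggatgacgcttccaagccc
Rpl3: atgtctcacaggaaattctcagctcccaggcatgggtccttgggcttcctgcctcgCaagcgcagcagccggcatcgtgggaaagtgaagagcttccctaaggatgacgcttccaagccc
Rps15-ps2 was nearly silent in replicate 1, and much of its sequence is its own. Its window lies at chr6:58017620-58017739 on the plus strand, between genes, and aligned to coding bases 115 to 234 of Rps15 with 6 differences.
Rps15-ps2: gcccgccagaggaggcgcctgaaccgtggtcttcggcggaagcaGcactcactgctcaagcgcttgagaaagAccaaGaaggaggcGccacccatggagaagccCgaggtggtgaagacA
Rps15: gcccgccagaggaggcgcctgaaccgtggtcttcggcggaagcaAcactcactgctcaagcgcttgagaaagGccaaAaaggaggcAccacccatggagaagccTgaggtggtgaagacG
Rps19-ps1, at chr14:53214016-53214135 on the plus strand, is shown because the same bases stand again in Rps19-ps2, at chr14:52903079-52903198 on the same strand. Both differ from coding bases 287 to 406 of Rps19 at 5 positions and from each other at none along their whole annotated transcripts.
Rps19-ps1: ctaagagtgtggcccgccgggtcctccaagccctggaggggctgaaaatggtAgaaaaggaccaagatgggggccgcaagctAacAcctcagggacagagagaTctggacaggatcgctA
Rps19: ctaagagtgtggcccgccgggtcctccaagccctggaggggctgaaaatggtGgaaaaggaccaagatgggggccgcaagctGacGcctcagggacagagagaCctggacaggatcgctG

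Over the whole group, 255 of the 257 genes had a parent by symbol, and these parents numbered 56. The Rps12 stem was the largest with 22 copies, followed by Rpl31 with 21, Rpl23a and Rps19 with 14 each, and Rpl21 with 12. Median identity to the parent over the aligned bases was 97.1%, with a median of 12 mismatches, and 13 genes had no mismatch or gap over an alignment that covered at least 90% of the coding sequence. The parent's start codon was aligned in 211 genes. In 117 genes the frame from that start ran to the parent's length, in 88 it was shorter, in 4 it was longer, and in 2 the start codon itself was changed. By position, 178 of the 257 genes lie between annotated genes, 72 lie in an intron of another gene and 7 overlap an exon of another gene.

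Some symbols did not match the gene they name. For example, the best match among protein-coding transcripts was Mrpl48 for Rpl48-ps1, Evc2 for Rpl17-ps11, Rpl36al for Rpl36a-ps3 and Rps4x for Rps4l-ps. Rpl35-ps1 matched Gm2000 best, Rps18-ps1, Rps18-ps2 and Rps18-ps3 matched Gm10260 best, and Rpl13-ps1 had no match. None of these is among the 20 leading genes.

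Most of the named pseudogenes had no count. An expected count is the quantifier's estimate of the fragments from a gene, and it can hold a fraction of a fragment where reads fit more than 1 gene. In each library 93 of the 257 genes had a count above 0. Both libraries gave a count for 77 genes, replicate 1 alone for 16 and replicate 2 alone for 16, and 148 genes had none in either. A count of 0 allows a share of up to 9.64e-06% of the counts in replicate 1 and 5.19e-06% in replicate 2, for counting error only and not for reads assigned to another copy. At 1 TPM, where TPM is a transcript level per length with the same sum in every library, 41 genes were detected in both libraries, 12 in replicate 1 only and 10 in replicate 2 only. The lower bound of the deposited TPM interval, whose level is not stated, reached 1 TPM in both libraries for 34 genes, and 19 genes reached 10 TPM in both.

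The group's total was small and came from a few genes. Its summed TPM was 4485 in replicate 1 and 2232 in replicate 2, which is 0.449% and 0.223% of all TPM. The summed expected counts went the other way in absolute number, 42662 and 55408, in libraries of unequal depth. Rps10-ps2 alone held 64.7% of the group's TPM in replicate 1 and 24.5% in replicate 2, and the top 5 genes of each library held 85.1% and 68.5%. Without Rps10-ps2 the mean share of all TPM was 0.163% in place of 0.336%. The parents summed to 111335 TPM and 174569 TPM, so the named pseudogenes held 3.87% and 1.26% of the TPM of parents and pseudogenes together.

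**Figure D1:**
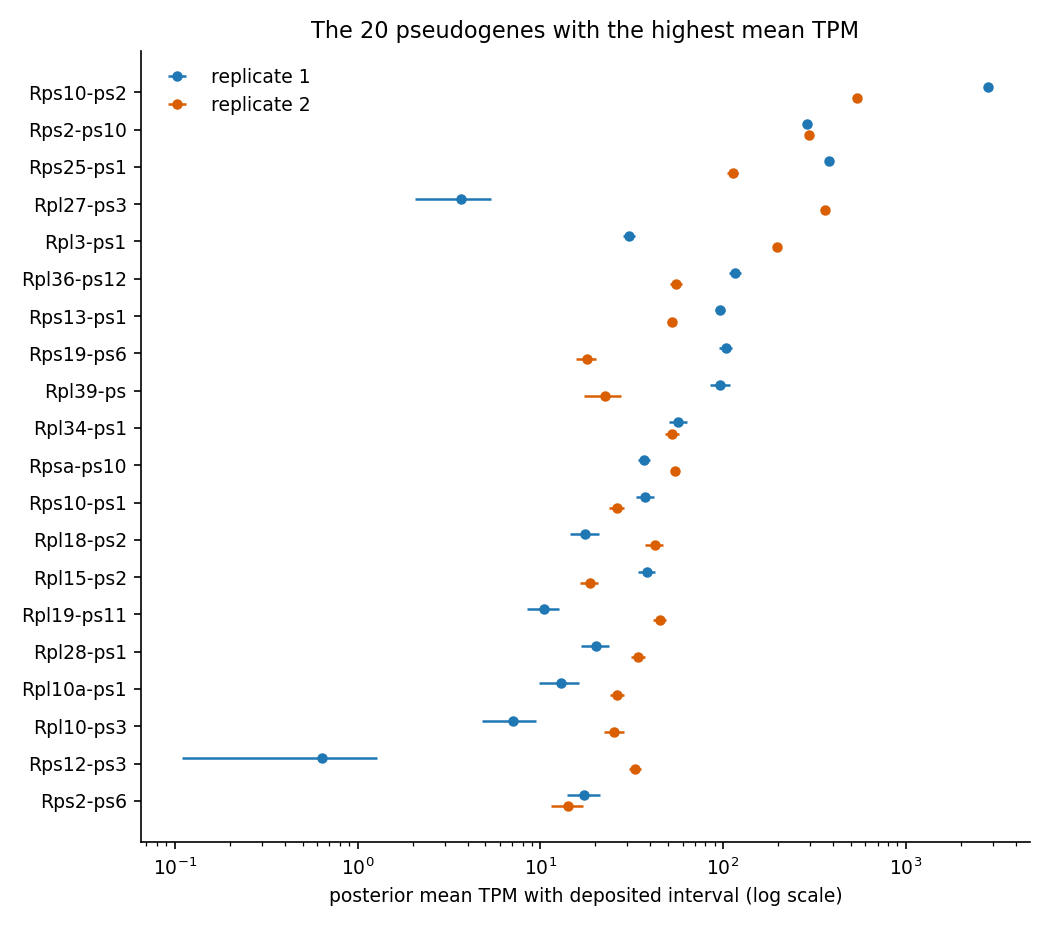
Posterior mean TPM (x axis, log scale) of the 20 pseudogenes with the highest mean TPM, with replicate 1 in blue, replicate 2 in orange and bars for the deposited TPM interval. Rps10-ps2 lies farthest right in both libraries, Rps2-ps10 at nearly the same level in both, and Rpl27-ps3 and Rps12-ps3 spread widest.

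Among copies of small subunit genes, Rps10-ps2 stood first in both libraries. Rps10 sits at the head of the small subunit. Rps10-ps2 had 2900 TPM in replicate 1 and 547 TPM in replicate 2 (mean 1723 ± 1664, SD, n = 2), from 25865 and 9858 expected counts. Rps10 itself had 4076 TPM and 3051 TPM, so the copy reached 71.2% and 17.9% of its parent's level. Rps10-ps2 differs from Rps10 at 5 of 496 aligned bases, all of them inside the window printed above, and keeps an open frame of 165 codons. Of its windows of 50 bases, 76.7% also stand in Rps10 and 23.3% in no other gene. Its TPM in replicate 1 lay above its own deposited interval, 2769 to 2865, which surrounds the posterior mean of 2817. A second copy, Rps10-ps1, was far lower, at 38.5 TPM and 26.6 TPM.

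Rps2-ps10 and Rps25-ps1 came next. Rps2-ps10 lies in an intron of Pde6a on the opposite strand and had 298 TPM and 300 TPM (mean 299 ± 1.05, SD, n = 2). Its TPM intervals overlapped, 280 to 298 and 286 to 303. The equal totals were made up differently: its transcript of 879 bases was listed at 151 TPM and 54.6 TPM, and that of 965 bases at 147 TPM and 245 TPM. The longer transcript held 49.3% of the gene's TPM in replicate 1 and 81.8% in replicate 2. Rps2, a protein of the small subunit's mRNA entry side, had 5702 TPM and 3745 TPM. Only 3.71% of the windows of Rps2-ps10 stand in no other gene. Its host gene Pde6a had 0.08 TPM and 0.02 TPM.

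Rps25-ps1 had 392 TPM in replicate 1 and 114 TPM in replicate 2 (mean 253 ± 196, SD, n = 2), from 2347 and 1355 expected counts. Rps25, a small subunit protein near the tRNA exit site, had 75.6 TPM and 46.2 TPM. The deposited intervals of copy and parent did not overlap in either library: 364 to 398 against 68.1 to 79.1 TPM in replicate 1, and 105 to 120 against 42.3 to 48.8 TPM in replicate 2. Rps25-ps1 was thus listed at 518% and 248% of its parent's TPM, and it was the only named pseudogene above its parent in TPM in both libraries. In expected counts Rps25 had 1024 and 1285, so on that scale the copy stood less far above it, and near it in replicate 2. Rps25-ps1 differs from Rps25 at 4 of 378 aligned bases, keeps the parent's frame of 125 codons, and holds 30.4% of windows found in no other gene.

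The other leading small subunit copies differed between the libraries in both directions. Rps13-ps1 had 99.6 TPM and 53.1 TPM, and Rps19-ps6 had 106 TPM and 18.2 TPM. Rps13 had 3863 TPM and 5237 TPM, and Rps19, which is needed for small subunit maturation, 6784 TPM and 5117 TPM. Both of these copies were lower in replicate 2. Rps2-ps6, at 17.9 TPM and 14.2 TPM, carries 24 gap bases against Rps2. Rpsa-ps10, a copy of the gene for the small subunit protein also known as the laminin receptor, had 38.1 TPM and 55.6 TPM, with Rpsa at 706 TPM and 4414 TPM, so copy and parent were both higher in replicate 2. All 9 Rpsa copies had a count in at least 1 library.

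Among copies of large subunit genes, Rpl27-ps3 and Rpl3-ps1 led through replicate 2. Rpl27-ps3 had 3.99 TPM in replicate 1 and 366 TPM in replicate 2, from 33.5 and 6202 expected counts, with Rpl27 at 282 TPM and 889 TPM. It aligned to the whole coding sequence of Rpl27 without a mismatch or gap, and 0% of its windows are its own. The length deposited for it differs from its length in M21, as it does for all but 221 of the 257 genes, so the model used for counting may hold other bases. Rpl3-ps1 had 31.6 TPM and 200 TPM, from 842 and 11116 expected counts. Rpl3, whose protein reaches toward the peptidyl transferase centre, had 69.0 TPM and 105 TPM. The copy was therefore at 45.8% of its parent in replicate 1 and 191% in replicate 2. Rpl3-ps1 differs from Rpl3 at 2 of 1210 aligned bases, and 91.4% of its windows stand in Rpl3.

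Rpl36-ps12, in an intron of Sumf1 on the same strand, had 120 TPM and 56.1 TPM, while Sumf1 had 42.6 TPM and 25.6 TPM. Whether counting took account of strand is not given in the sources used here. Rpl39-ps, a copy of the gene for a small protein of the exit tunnel, had 97.7 TPM and 21.4 TPM, and Rpl39 differed the same way, with 603 TPM and 140 TPM. Rpl34-ps1 had 58.8 TPM and 53.6 TPM, with overlapping intervals. Rpl15-ps2 had 39.4 TPM and 18.9 TPM while Rpl15, a protein of the large subunit core, had 55.6 TPM and 159 TPM. Rpl18-ps2 had 17.7 TPM and 42.8 TPM, Rpl19-ps11 10.8 TPM and 45.7 TPM, and Rpl28-ps1 20.6 TPM and 34.7 TPM, so the gene totals were higher in replicate 2. For Rpl18-ps2 that excess was listed in a second transcript of 278 bases, with 0 TPM and 26.1 TPM, while its transcript of 567 bases had 17.7 TPM and 16.7 TPM. Rpl28-ps1 and Rpl10a-ps1, the latter at 13.1 TPM and 26.6 TPM, are identical to their parents over the aligned bases, and all of their windows stand in those parents.

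The 6 genes annotated as protein-coding ranged from no count in either library to the levels of Rpl10-ps3 and Rps12-ps3, which are among the leading genes. Rpl10-ps3, whose sequence matches the coding part of Rpl10, which encodes a protein added late in large subunit assembly, had 7.46 TPM and 26.7 TPM. Rps12-ps3, identical to Rps12, had 0.49 TPM and 33.6 TPM. Rpl36a-ps1 had 1.22 TPM and 0.66 TPM, and Rpl9-ps6 had 1.21 TPM and 0.34 TPM. Rpl36-ps4 and Rpl9-ps1 had no count in either library. These are also the most diverged of the 6, with 30 and 27 mismatches and with 100% and 91.3% of windows found in no other gene.

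The stems with most copies ranged widely in level. The 22 Rps12 copies summed to 0.95 TPM and 33.6 TPM, and 2 of them had a count. Of 14 Rpl23a copies 1 had a count, and of 12 Rpl21 copies 3 did, with summed levels of 0.40 TPM and 0.12 TPM. The 21 Rpl31 copies, 5 with a count, summed to 6.83 TPM and 3.51 TPM. The 14 Rps19 copies, 8 with a count, were higher, at 111 TPM and 27.9 TPM, most of it from Rps19-ps6.

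Set beside their parents, nearly all copies were far lower. The median over 255 genes of log2 of pseudogene over parent, on TPM with a pseudocount of 1, was -7.63 in replicate 1, -8.77 in replicate 2 and -8.63 for the mean of both. In each library 164 of all 257 genes had no count. For these the ratio is set by the parent's level and the pseudocount alone, so the median is no measure of their own level. Among the 93 genes with a count in a library, the median level was 0.270% of the parent's TPM in replicate 1 and 0.298% in replicate 2. Above 10% of the parent stood 10 genes in replicate 1 and 9 in replicate 2. Above the parent itself stood 1 gene in replicate 1 and 2 in replicate 2, Rps25-ps1 and Rpl3-ps1.

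**Figure D2:**
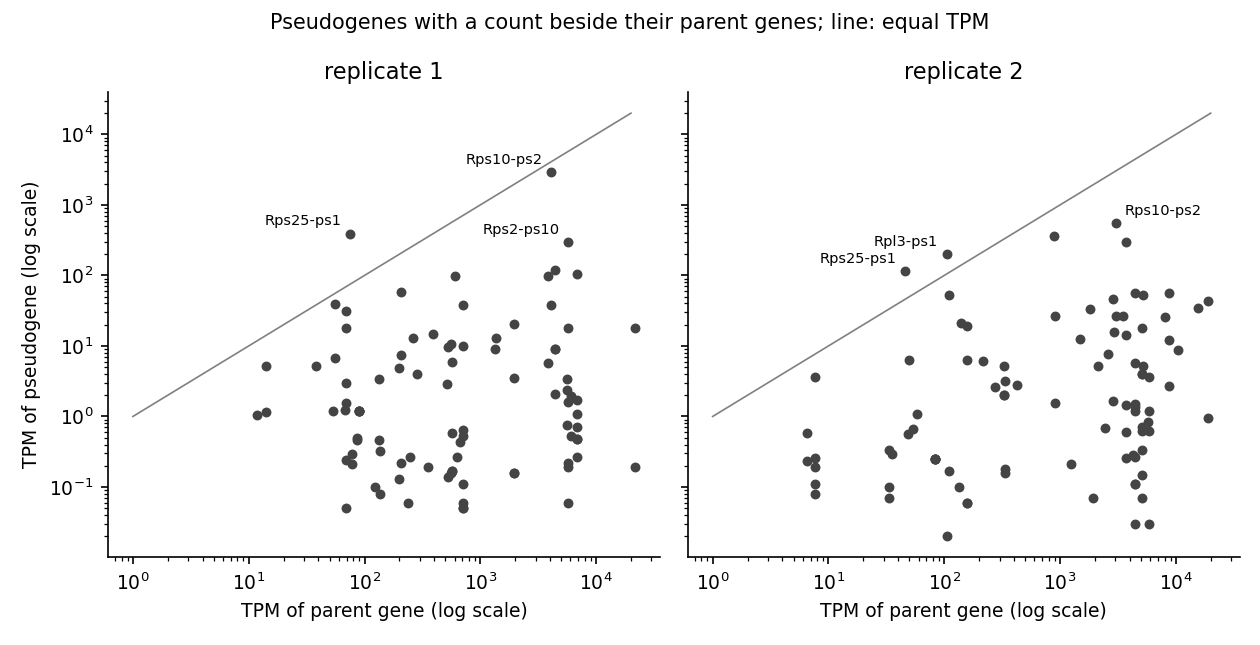
TPM of each pseudogene with a count (y axis, log scale) against TPM of its parent gene (x axis, log scale), with 1 point per pseudogene, 1 panel per library and a line of equal TPM. Rps25-ps1 lies above the line in both libraries and Rpl3-ps1 in replicate 2, and all other points lie below it.

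Within families, made of a parent and its named copies, the copies held over 10% of the TPM in at least 1 library in 11 of 56 families and under 1% in both libraries in 25. In the Rps25 family the copy held 83.8% and 71.2%. In the Rpl3 family the copies held 31.4% in replicate 1 and 65.6% in replicate 2. The Rps15a copies held 31.2% and 35.8%, beside a parent of only 14.1 TPM and 7.59 TPM. In expected counts those copies had 40.4 and 53.2 and the parent 426 and 501, a smaller share than in TPM. The Rps10 copies held 41.9% and 15.8%, the Rpl15 copies 45.3% and 13.7%, the Rpl17 copies 24.6% and 2.71%, and the Rpl27 copies 1.40% and 29.2%. With pseudogenes of the Rpl15 family that lack such a symbol counted, the named Rpl15 copies held 27.5% and 4.89%. Replicate 1 was thus the higher in some families and replicate 2 in others. The Rpl29 copies held 8.32% and 11.1% beside a parent of 11.7 TPM and 6.52 TPM. Most RNA listed for that family was in pseudogenes without such a symbol, 3931 TPM and 3406 TPM, and with them counted the named copies held 0.0269% and 0.0237%.

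**Figure D3:**
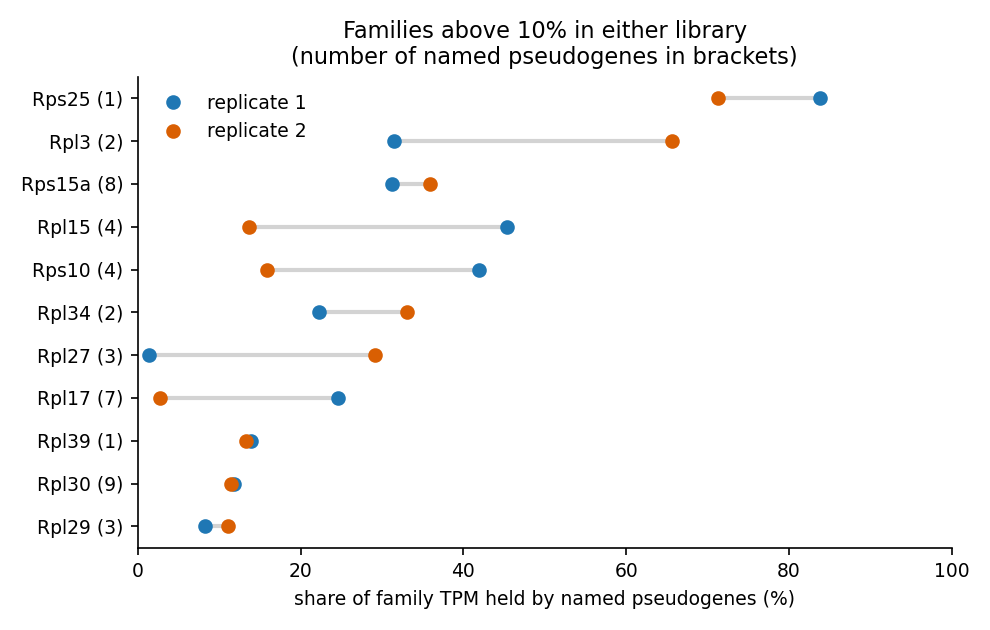
Share of the TPM of parent and named pseudogenes that the pseudogenes held (x axis, percent), for the 11 families above 10% in either library, with replicate 1 in blue and replicate 2 in orange. Rps25 lies above 70% in both libraries, whereas Rpl3, Rpl15, Rps10, Rpl27 and Rpl17 differ widely between them.

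The choice to count a copy with its parent moved the parent's ratio between libraries in 7 of 56 families by at least 0.1 on the log2 scale, and turned its sign in 0. Here log2 is of scaled counts of replicate 2 over replicate 1. Scaled counts are expected counts divided by library sizes scaled with TMM. That factor brings a trimmed mean of the genes' log ratios between the libraries to 0. With copies added, the ratio of Rpl3 changed from 1.13 to 1.92 and that of Rps25 from -0.45 to -1.13. That of Rps10 changed from -0.27 to -0.73, Rpl15 from 2.43 to 1.98, and Rpl27 from 1.53 to 1.91.

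Detection went with how much of a copy's sequence is shared. For each gene the share of windows of 50 bases that stand in no other annotated transcript, on either strand, was counted. Its median was 11.7% in the 41 genes at 1 TPM or more in both libraries, 51.6% in the 68 other genes with a count and 79.4% in the 148 without a count. Median identity to the parent fell in the same order, 99.4%, 98.2% and 94.9%. Of the 144 genes with at least 50% of windows to themselves, 2 (1.39%) were detected in both libraries, and of the 113 others 39 (34.5%) were. Among the 41 detected genes, 11 had no window of their own. Among those 41, 30 kept an open frame of the parent's length, as did 51 of the 148 without a count. These are counts over genes that share sequence, and no test was made.

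**Figure D4:**
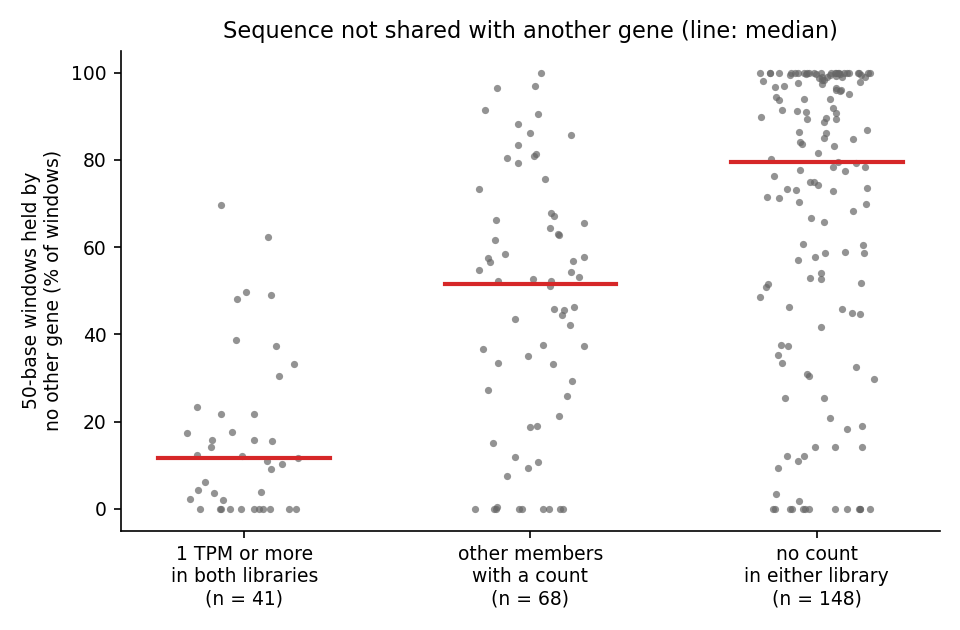
Percent of 50-base windows held by no other gene (y axis), with 1 point per pseudogene, spread sideways at random, in 3 classes by level and a red line for each median. The medians are 11.7%, 51.6% and 79.4%, and 2 of the 41 detected genes lie above 50%.

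The 2 detected genes with mostly their own sequence were Rpl36-ps3 and Rpsa-ps12. They are named here for that reason, and Rpl36-ps3 was chosen after its values were seen. Rpl36-ps3 had 9.12 TPM in replicate 1 and 12.2 TPM in replicate 2, with overlapping intervals of 6.46 to 11.8 and 9.84 to 14.5, and 69.5% of its windows are its own. Rpsa-ps12 had 9.87 TPM and 1.51 TPM, with intervals of 8.10 to 11.4 and 1.10 to 1.96. Its windows are 62.3% its own, it has 20 mismatches and 4 gap bases against Rpsa, and its frame ends after 73 of the parent's 295 codons.

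The deposited tables themselves show how the reads were divided. Expected counts were whole, to within 0.005, in 12.9% and 6.45% of the named pseudogenes with a count, against 88.0% and 87.3% of all genes with a count. The posterior standard deviation of the count, the quantifier's own measure of how uncertain the division was, was 0 in 1 of the 55 pseudogenes with a summed count of at least 20, or 1.82%. Over all 10635 genes with such a count it was 0 in 85.2% in replicate 1 and 84.8% in replicate 2. The TPM interval spanned a median of 0.652 times the posterior mean in replicate 1 and 0.419 times in replicate 2 for the 55. For all those genes it spanned 0.201 and 0.142 times. The sets were not matched for count or length, and the part of read division in the interval widths was not tested.

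Identical copies received identical counts. Rps19-ps1 and Rps19-ps2 each had 3.61 counts in replicate 1 and 59.1 in replicate 2. Rpl35a-ps2, Rpl35a-ps3, Rpl35a-ps4 and Rpl35a-ps6 each had 5.83 and 2.35 counts. Of the Rps12 copies, a set of 5 and a set of 3 are identical within the set, and all 8 had 0 counts. These sets hold 14 genes in all, and members of a set are not separate measurements.

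The choice between the deposited estimates decided some genes. Rpl7a-ps11 had an expected count of 0 in both libraries but a posterior mean count of 816 in replicate 1 and 821 in replicate 2, with posterior standard deviations of 673 and 597. Its TPM interval ran from 1.90 to 125 in replicate 1 and from 0.014 to 62.0 in replicate 2, and it has no window of its own. Rpl15-ps3, identical to Rpl15, was listed at 6.64 TPM and 6.23 TPM with intervals from near 0 up to 9.75 and 19.8.

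The libraries were then compared gene by gene among the 55 named pseudogenes with a summed expected count of at least 20. With 1 library on each side, a two-sided exact binomial test with Benjamini-Hochberg adjustment over all 10635 genes compares the reads of these libraries and measures counting noise only. It called 41 of the 55, or 74.5%, with 24 higher in replicate 2 and 17 higher in replicate 1. Over all genes tested it called 80.5%, with 40.6% higher in replicate 2 and 39.9% higher in replicate 1, so the share among the pseudogenes was near the background. A difference of at least 2-fold in scaled counts, with a prior count of 2, was found in 28 of the 55, or 50.9%, with 18 higher in replicate 2 and 10 in replicate 1. Over all genes that share was 26.9%, made of 18.2% toward replicate 2 and 8.71% toward replicate 1. The deposited TPM intervals did not overlap in 29 of the 55, or 52.7%, a lower share than the 72.9% of all genes. By the sign of the scaled-count ratio, not by the intervals, 15 of those 29 were higher in replicate 2 and 14 in replicate 1. Over all genes the shares apart were 31.6% and 41.3% by the same sign. In 12 of the 41 genes called by the binomial test the intervals overlapped, as they did in 7 of the 28 at 2-fold.

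The functional ribosomal protein genes were mostly higher in replicate 2. Of the 79 listed genes, the exact binomial test called 49 higher in replicate 2 and 26 higher in replicate 1, and 36 and 3 differed by at least 2-fold. Their median log2 ratio was 0.80, against 0.33 for the 55 pseudogenes, whose ratios ran from -2.81 to 6.67. In 38 of the 55 the pseudogene and its parent lay on the same side of 0. Across these 55 genes, which share libraries and reads with their parents and with each other, Spearman's rho between the ratios of pseudogene and parent was 0.40 and Pearson's r 0.42. The levels of the 50 pseudogenes with a mean of at least 1 TPM had a Spearman rho of 0.66 between the libraries.

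**Figure D5:**
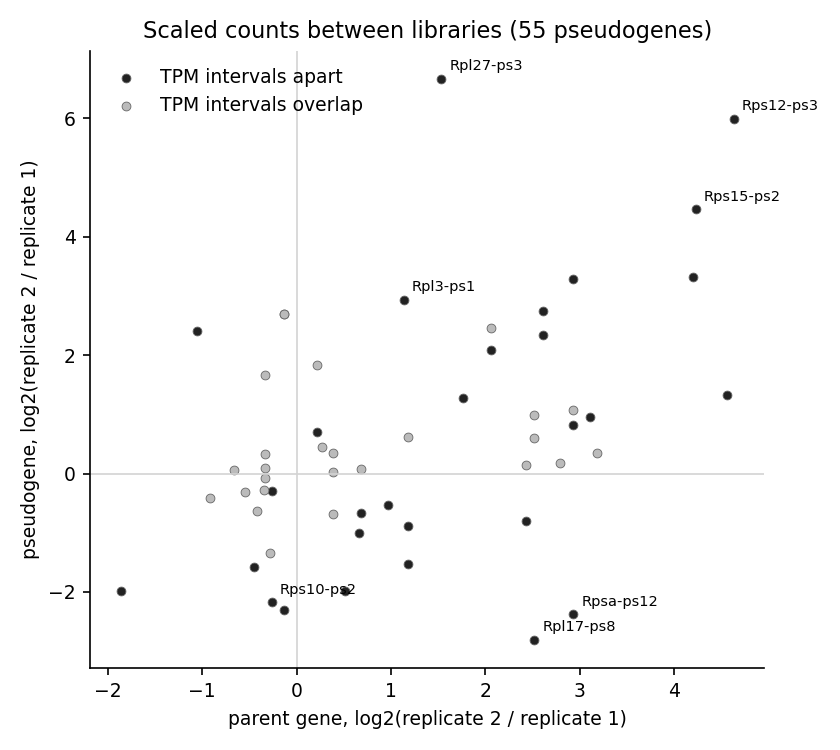
Log2 ratio of scaled counts, replicate 2 over replicate 1, of 55 pseudogenes (y axis) against that of their parents (x axis), with black points where the deposited TPM intervals do not overlap and grey points where they do. Most points lie right of 0, Rpl27-ps3 lies highest, and Rpl17-ps8 and Rpsa-ps12 lie low while their parents lie to the right.

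The copies with the largest ratios toward replicate 2 had parents that also lay toward replicate 2. Ratios below are log2 of scaled counts, and all genes named for them had a summed count of at least 100. Rpl27-ps3 had a log2 ratio of 6.67 and Rpl27 one of 1.53. Rps12-ps3, with 4.35 and 602 expected counts, had 5.99, beside 4.63 for Rps12, a small subunit protein. Rps15-ps2, with 2.00 and 131 expected counts, had 4.46 (exact binomial test, adjusted p = 4.81e-23), beside 4.23 for Rps15. Rps15, which is needed to export small subunit precursors, had 633 TPM and 10399 TPM, and Rps15-ps2 had 0.27 TPM and 8.76 TPM. Unlike the first pair, Rps15-ps2 has 67.9% of its windows to itself, with 10 mismatches to its parent. Rps26-ps1 had a log2 ratio of 3.33, beside 4.19 for Rps26, and Rpsa-ps2 had 3.29, beside 2.93 for Rpsa. The TPM intervals of all 5 copies lay apart between the libraries.

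The copies with the largest ratios toward replicate 1 parted into those with and those against their parents. Rpl17-ps8, in an intron of Heph on the same strand, had 213 and 49.8 expected counts and 17.7 TPM and 2.03 TPM, a log2 ratio of -2.81 (exact binomial test, adjusted p = 5.97e-48). Rpl17, a protein at the mouth of the exit tunnel, differed the other way, with 68.9 TPM and 330 TPM and a log2 ratio of 2.52. Heph was listed at 0 TPM in both libraries. Rpsa-ps12 had a log2 ratio of -2.38 (exact binomial test, adjusted p = 1.37e-34) while Rpsa had 2.93. Rpl15-ps2, whose ratio was smaller and not among the largest toward replicate 1, also lay against its parent, at -0.80 beside 2.43. Rps10-ps2 had a log2 ratio of -2.17 beside -0.27 for Rps10, and Rps19-ps6 had -2.31 beside -0.13 for Rps19. Rpl39-ps had -1.99, close to -1.86 for Rpl39. The intervals of these 6 copies did not overlap between libraries.

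Some leading genes differed little in scaled counts between the libraries, whether or not the exact binomial test called them. Rpl34-ps1 had a log2 ratio of 0.06 (exact binomial test, adjusted p = 0.631), with 317 and 567 expected counts before scaling. Rps2-ps6 had -0.07 (exact binomial test, adjusted p = 0.600). Rps2-ps10, with nearly equal gene TPM, had a log2 ratio of 0.33 in scaled counts and was called by the exact binomial test (adjusted p = 4.39e-47). Levels in TPM and ratios of scaled counts are different scales, and the split between its transcripts given above also differed between the libraries.

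Of the 41 detected genes, 23 lie between genes, 16 in an intron of another gene and 2 over an exon of another gene. Between-gene positions held 56.1% of the detected and 70.3% of the 148 genes without a count, and introns 39.0% and 27.7%. Of the 18 detected genes inside another gene, 6 lie on that gene's strand and 12 on the opposite strand. Host genes were listed at levels from 0 TPM, as for Adgrd1 around Rps16-ps2 (14.6 TPM and 15.8 TPM), to 174 TPM and 69.7 TPM for Tcf12 around Rpl15-ps2. The part of host transcripts in these values was not tested.

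Having a symbol of the form used here went with having a count more often. Beside the 257 named genes, 1114 pseudogenes without such a symbol matched a ribosomal protein gene. A count in either library was found for 203 of the 1114 (18.2%) against 109 of the 257 (42.4%), and 1 TPM in both libraries for 43 (3.86%) against 41 (15.95%). Among 7655 other pseudogenes the shares were 15.0% and 2.60%. The copies without such a symbol nevertheless summed to more TPM than the 257, with 7582 in replicate 1 and 15212 in replicate 2.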

How the data were processed

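Per the text deposited with each library, reads were aligned to mm10 and quantified on GENCODE M4. For the aligner, the quantifier and the strand setting the entry is: not given in the sources used here. Each library has tables of its own. The authors deposited, per the file headers, expected counts (estimated fragments per gene, not normalised), posterior mean counts, TPM and FPKM (scaled to effective length), and the percent of a gene's TPM in each transcript. The deposited posterior standard deviations and TPM interval bounds are signal values that surround the posterior mean, with no stated level.

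The members and gene lists were chosen with earlier results of these data known. Members and parents (the protein-coding gene of the same stem) were matched by identifier to GENCODE M21 on GRCm38; M4 and a genome sequence were not used here. Copies were aligned locally to the coding transcript that aligned best (Biopython 1.88) and matched with BLAST 2.17.0. Expected counts were rounded, scaled with TMM (edgeR 4.0.16), and tested by an exact binomial test with Benjamini-Hochberg adjustment at 0.05 over genes with a summed count of at least 20. On simulated data the test was checked on known changes. Apart from those changes the simulated counts held counting noise only. The check therefore does not cover the division of reads between copies or variation between replicates. edgeR's own test has no residual degrees of freedom here. Alternatives were total counts, DESeq2 1.42.0 size factors, posterior means, FPKM, other filters, levels and pseudocounts.

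Named genes were the 20 with the highest mean TPM, the 5 with the largest ratio in each direction at a summed count of at least 100, those not annotated as pseudogenes, and their parents. Other genes named were singled out after their values were seen.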

Additional observations from a re-analysis of the deposited data

How the results depend on the processing

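With posterior mean counts in place of expected counts, 116 genes in place of 77 had a count in both libraries, and with at least 10 counts required 44 did. The share of all TPM, 0.336%, was 0.116% of expected counts and, without Rps10-ps2 (chosen after seeing the data), 0.163%. The number at least 2-fold apart was 28 of 55 tested (50.9%, all genes 26.9%). It was 50 of 109 (45.9%, all genes 27.9%) with a summed count of at least 1. With at least 100 it was 16 of 35 (45.7%, all genes 25.5%). The median log2 of pseudogene over parent, -8.63, was -11.41 with a pseudocount of 0.1 TPM, -5.47 with 10 TPM, and between -8.77 and -7.63 when 1 library was left out. For genes without a count this ratio changes with the pseudocount by construction. Other causes were not tested, beyond the change in genes counted.

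Scaling by total counts shifted the median log2 ratio of all genes to -0.11, turned Rpl34-ps1 from 0.057 to -0.055, and moved no other direction among the 26 named genes with a ratio. With posterior mean counts, Rpl9-ps6 lost its call (adjusted p = 0.0676 in place of 0.0134, exact binomial test). The other 127 of 129 settings for these genes kept direction and side of the threshold. Added after seeing the data, windows of 100 bases gave medians of 26.2% for detected genes and 100% for genes without a count. No paired analysis was possible because there is 1 group, and comparisons between the libraries cannot be repeated with a library left out. The binomial test does not cover the division of reads between near-identical copies, which the TPM intervals may hold.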

Other observations

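Some ribosomal protein copies without such a symbol were listed at levels like those of the leading named ones. Gm10335, a copy of Rpl23a, was listed at 0 counts in replicate 1 and at 5296 TPM, from 87688 expected counts, in replicate 2. Gm13841 and Gm8210, copies of Rpl29, had the same values as each other, 1961 TPM in replicate 1 and 1696 TPM in replicate 2. Gm8730, a copy of Rplp0, the gene for the stalk base protein of the large subunit, had 230 TPM and 2399 TPM, and Gm13436, a copy of Rpl18, had 1584 TPM and 621 TPM.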
